A study of Oryza sativa Japonica Group and Oryza sativa Indica Group and Oryza sativa Indica Group x Oryza sativa Japonica Group with 9 samples.

Results

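The ends of the short arms of rice chromosomes 11 and 12 were followed here as 2 runs of gene loci. The members were all loci whose IDs run from LOC_Os11g01010 to LOC_Os11g03999 and from LOC_Os12g01010 to LOC_Os12g03999, without 3 loci of these ranges that the rule leaves out. They number 572 of the 55783 loci in the files, 287 on chromosome 11 and 285 on chromosome 12. The number within an ID gives the chromosome and the order of loci along it, and the rule uses ID numbers alone, although it was written with earlier results of these data known. The genome build is not given in the sources used here, so places are stated by ID and not by coordinates.

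These chromosome ends are known as a segmental duplicate, a stretch of genes copied from one chromosome to the other. Copies of such a stretch can stay alike through gene conversion, in which one copy overwrites the other, or can drift apart and lose members. Rice lines can differ in which copy is present and active, and a hybrid receives the copies of both parents. Copies that are nearly identical in sequence can share sequencing reads, so the level of each such copy is uncertain, and how the authors treated shared reads is not stated.

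The libraries came from shoots of 14-day-old seedlings in 3 groups of 3 libraries. The groups were the japonica cultivar C92, the indica cultivar MH63 (Minghui 63, a restorer line, which brings back fertility in hybrid rice breeding) and their F1 hybrid. Every group grew in water at 28 °C, with days of 16 h light (100 µmol/m2/s) and nights of 8 h. The labels write the hybrid as C92×MH63 in one field and MH63 x C92 in another, so the seed parent is not settled. The labels call the replicates biological without saying which plants went into each, and p-values measure no more than the spread between these libraries. Values are FPKM, a fragment count divided by transcript length and by library size, and levels of different loci can therefore be set side by side.

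FPKM summed to between 602005 and 623806 per library, and between 30440 and 33329 loci lay above 0. Read numbers are not given, so the depth behind each value is unknown. The files pair no ID with a gene name, so no member is given a function and the labelled tissue was not checked against marker genes. Over the 2331 loci that differed at least 2-fold between the parents, the median place of F1, on a scale from 0 at MH63 to 1 at C92, was 0.584, 0.607 and 0.479 for F1 libraries 1, 2 and 3. F1 libraries 1 and 2 thus stood nearer C92 than library 3 did, and F1 counts that depend on this are given with and without them.

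Both tips held a larger share of expressed loci than the rest of their chromosomes. A locus was tested when 3 or more libraries reached an FPKM of 1. The chromosome 11 tip had 151 of 287 members tested (52.6%), and the chromosome 12 tip 155 of 285 (54.4%). The share was 24.8% on the rest of chromosome 11, 27.9% on the rest of chromosome 12 and 38.4% over all loci. Of the other members, 25 on chromosome 11 and 28 on chromosome 12 were listed at 0 in every library, and 111 and 102 were detected below the limit. For C92, MH63 and F1 the median level of tested members was 6.96, 7.73 and 7.39 FPKM on the chromosome 11 tip. The corresponding levels on the chromosome 12 tip were 7.19, 7.35 and 7.23 FPKM, against 9.59, 9.15 and 9.38 FPKM over all tested loci. In bulk shoots, fewer cells that express a locus and less RNA per cell cannot be told apart.

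A few neighbouring loci held most of the FPKM of each tip. The 5 most abundant members took 70.4% to 82.3% of the FPKM sum of the chromosome 11 tip, and the 5 most abundant took 59.1% to 67.2% on chromosome 12. On chromosome 11 these lay from LOC_Os11g02350 to LOC_Os11g02424. The highest, LOC_Os11g02369, measured 4214, 6197 and 4826 FPKM in C92, 4481, 3714 and 3790 FPKM in MH63, and 3652, 3092 and 2601 in F1. Every F1 library lay below every library of both parents. Its log2 difference on the log2(FPKM + 1) scale was -0.70 for F1 against C92 (SE 0.20, limma adjusted p = 0.0321), -0.37 against MH63 (adjusted p = 0.239) and 0.33 for C92 against MH63 (adjusted p = 0.231). The F1 difference from C92 passed narrowly. It was lost when C92 library 2 or 3 or F1 library 2 or 3 was left out (adjusted p of 0.0698 to 0.111), when F1 libraries 1 and 2 were both left out (0.06), and with no filter (0.335). After quantile normalization the parents differed by 0.63 (adjusted p = 0.00788) and the F1 difference from MH63 was 0.07 (adjusted p = 0.768).

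The second on this tip, LOC_Os11g02350, measured 749.7, 1031 and 852.5 FPKM in C92, 1056, 940.4 and 947.7 in MH63, and 747.1, 720.0 and 487.9 in F1. It was lower in F1 than in MH63 by 0.61 on the log2 scale (log2 difference -0.61, SE 0.18, limma adjusted p = 0.0441), with no overlap of the libraries. This call was lost when C92 library 3, F1 library 2 or 3 or any MH63 library was left out (adjusted p of 0.062 to 0.132) and with no filter (0.133). Against C92 the difference was -0.44 (adjusted p = 0.108), and -0.83 (adjusted p = 0.0316) when F1 libraries 1 and 2 were both left out.

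On chromosome 12, 4 of the 5 members averaging at least 100 FPKM lay from LOC_Os12g02300 to LOC_Os12g02340. LOC_Os12g02320 was the highest, at 1131, 1246 and 1426 FPKM in C92, 1425, 1411 and 1134 in MH63, and 1258, 1595 and 1661 in F1. Its groups overlapped, and it passed in none of the comparisons with a parent (limma adjusted p of 0.799 between the parents, 0.296 for F1 against C92 and 0.471 for F1 against MH63). LOC_Os12g02340 measured 803.9, 1035 and 1018 FPKM in C92, 654.3, 643.3 and 650.6 in MH63, and 735.7, 716.2 and 623.1 in F1. It was higher in C92 than in MH63, with a log2 difference of 0.54 (SE 0.13, limma adjusted p = 0.00905), and lower in F1 than in C92, with -0.46 (SE 0.13, adjusted p = 0.0292). All C92 libraries lay above all others. The F1 difference was lost when C92 library 2 or 3 or F1 library 2 or 3 was left out (adjusted p of 0.0515 to 0.0999), when F1 libraries 1 and 2 were both left out (0.0624), and with no filter (0.11).

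**Figure D1:**
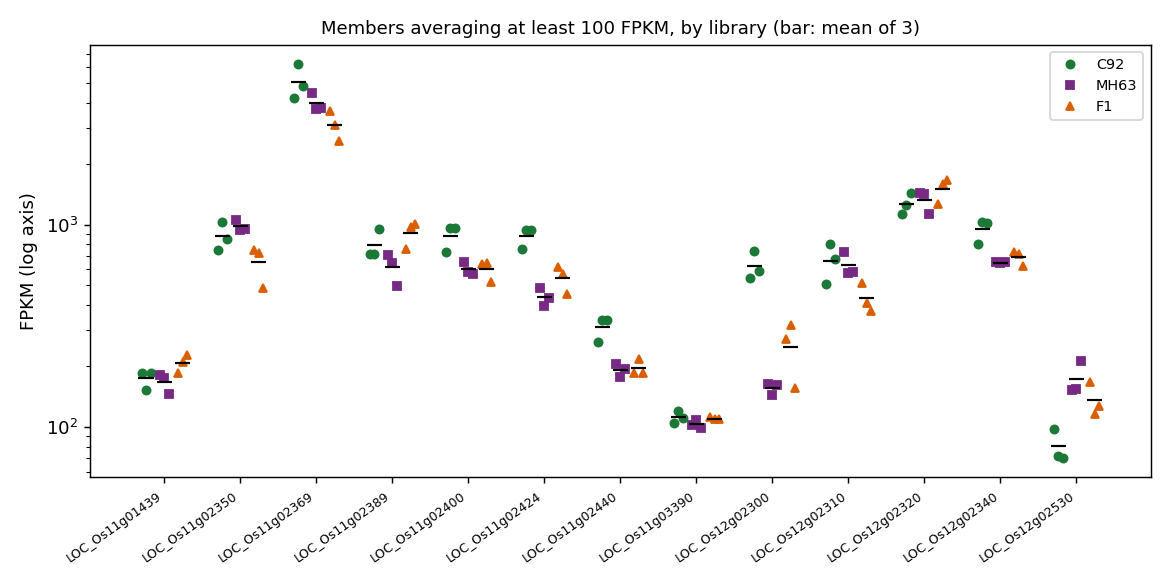
FPKM on a log axis of the 13 members averaging at least 100 FPKM, 8 on chromosome 11 and 5 on chromosome 12; points are libraries and bars the mean of 3. LOC_Os11g02369 stands above all other members at 2601 to 6197 FPKM, and LOC_Os12g02300 shows the widest gap between the parents among these loci.

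The chromosome 11 tip outweighed the chromosome 12 tip in every library. Summed FPKM of the members was 10615 ± 1378 on chromosome 11 and 5593 ± 481 on chromosome 12 in C92 (SD, n = 3), 8782 ± 654 and 4795 ± 185 in MH63, and 7941 ± 660 and 4986 ± 153 in F1. By library, the ratio of chromosome 11 to chromosome 12 was 1.83, 2.02 and 1.83 in C92, 1.91, 1.76 and 1.82 in MH63, and 1.73, 1.58 and 1.47 in F1. All F1 ratios lay below all parental ones. Without the most abundant member of each tip the mean ratio was 1.28 in C92, 1.38 in MH63 and 1.39 in F1, so the lower ratio in F1 rested on LOC_Os11g02369 and LOC_Os12g02320.

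Comparison of the parents asked how far expression in each tip differs between the lines. Of the 151 tested members on the chromosome 11 tip, 64 differed between C92 and MH63 at a limma adjusted p below 0.05, 29 higher and 35 lower in C92. That is 42.4%, beside 34.1% of all tested loci and 41% on the rest of chromosome 11. Of the 155 on the chromosome 12 tip 46 differed, 26 higher and 20 lower in C92. That is 29.7%, beside 38.9% on the rest of chromosome 12. Over all tested loci 19.2% were higher and 14.9% lower in C92. After quantile normalization 24 were higher and 41 lower on the chromosome 11 tip, and 22 and 23 on the chromosome 12 tip, so that the larger side turned on chromosome 12. The reference used for alignment is not named, and less complete matching of the reads of either line cannot be told apart from lower expression. Whether the shares of the tips differ was not tested.

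At 2-fold or more, 5 members of the chromosome 11 tip were higher in C92 and 13 in MH63, and on the chromosome 12 tip 7 were higher in C92 and 5 in MH63. Over all tested loci 6.46% were higher in C92 at 2-fold and 4.41% in MH63, together 10.9%. In either direction the share was 11.9% on the chromosome 11 tip, beside 18.4% on the rest of chromosome 11. It was 7.74% on the chromosome 12 tip, beside 14.5% on the rest of chromosome 12. Whether these shares differ was not tested. The median log2 difference was -0.006 on the chromosome 11 tip, 0.033 on the chromosome 12 tip and 0.028 over all tested loci. Along chromosome 11, 2 of 48 tested members with ID numbers starting with 01 were higher in MH63 at 2-fold, 8 of 54 with numbers starting with 02 and 3 of 49 with numbers starting with 03. At 2-fold or more in either direction the shares of these stretches were 10.4%, 16.7% and 8.16% on chromosome 11, and 4%, 8.77% and 10.4% on chromosome 12. Called at any size were 20, 25 and 19 members on chromosome 11, or 41.7%, 46.3% and 38.8%. On chromosome 12 these were 18 of 50, 19 of 57 and 9 of 48, or 36%, 33.3% and 18.8%. The order along each tip thus depended on the measure.

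**Figure D2:**
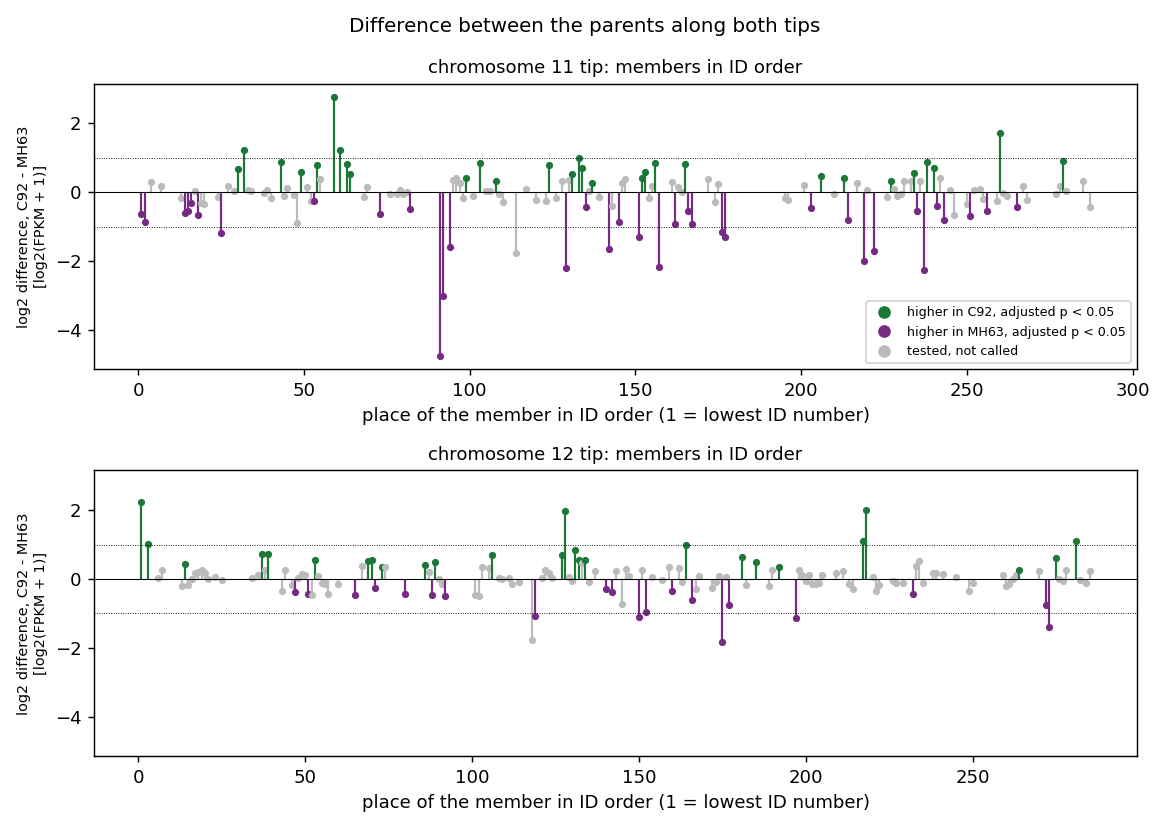
Log2 difference between C92 and MH63, on the log2(FPKM + 1) scale, of each tested member in ID order, with the chromosome 11 tip above and the chromosome 12 tip below; dotted lines mark 2-fold. The longest downward bars, higher in MH63, are the neighbours LOC_Os11g01990 and LOC_Os11g02000, and the longest upward bar is LOC_Os11g01690.

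The largest differences of the chromosome 11 tip were between expression and none. LOC_Os11g01990 was listed at 0 in every C92 library and measured 25.8, 25.3 and 27.6 FPKM in MH63 (limma adjusted p = 1.83e-08). In F1 it measured 9.27, 6.22 and 10.7 FPKM, between the parents in every library. Its neighbour LOC_Os11g02000 was also listed at 0 throughout C92 and measured 7.92, 7.06 and 6.24 FPKM in MH63 (adjusted p = 2.83e-08) and 3.20, 2.82 and 3.14 in F1. Together with LOC_Os11g02020, singled out after its values had been seen, these formed a run of 3 neighbouring tested members higher in MH63 at 2-fold or more.

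In the other direction, LOC_Os11g01690 measured 5.10, 6.82 and 8.11 FPKM in C92, 0.25, 0 and 0.08 in MH63, and 4.85, 4.48 and 5.23 in F1. Between the parents the log2 difference was 2.78 (SE 0.16, limma adjusted p = 7.32e-07). LOC_Os11g03720 measured 12.2, 13.4 and 14.3 FPKM in C92, 2.36, 4.03 and 3.87 in MH63, and 8.04, 10.1 and 8.36 in F1, with a log2 difference of 1.71 (SE 0.16, adjusted p = 2.92e-05). In both loci the parents did not overlap.

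At the start of the chromosome 12 tip the first locus, LOC_Os12g01010, measured 9.77, 9.04 and 10.6 FPKM in C92, 1.48, 1.42 and 0.98 in MH63, and 6.51, 7.91 and 6.48 in F1. Its log2 difference between the parents was 2.24 (SE 0.12, limma adjusted p = 6.4e-07). LOC_Os12g03240 measured 14.2, 10.8 and 16.0 FPKM in C92, 2.02, 2.47 and 3.35 in MH63, and 10.98, 15.2 and 12.2 in F1, with a log2 difference of 2.02 (SE 0.18, adjusted p = 2.21e-05). In LOC_Os12g01010 F1 lay between the parents in every library, and in LOC_Os12g03240 its libraries overlapped those of C92.

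Higher in MH63 on this tip were LOC_Os12g03830 and LOC_Os12g03040. LOC_Os12g03830 measured 2.37, 1.26 and 0.58 FPKM in C92, 4.83, 3.85 and 6.78 in MH63, and 4.25, 3.13 and 3.32 in F1, with a log2 difference of -1.40 (SE 0.27, limma adjusted p = 0.00317). LOC_Os12g03040 measured 5.92, 3.48 and 5.40 FPKM in C92, 14.8, 9.69 and 11.4 in MH63, and 11.1, 13.9 and 13.8 in F1, with a log2 difference of -1.13 (SE 0.19, adjusted p = 0.00159). The F1 libraries of LOC_Os12g03040 overlapped those of MH63 and stood clear of C92.

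**Figure D3:**
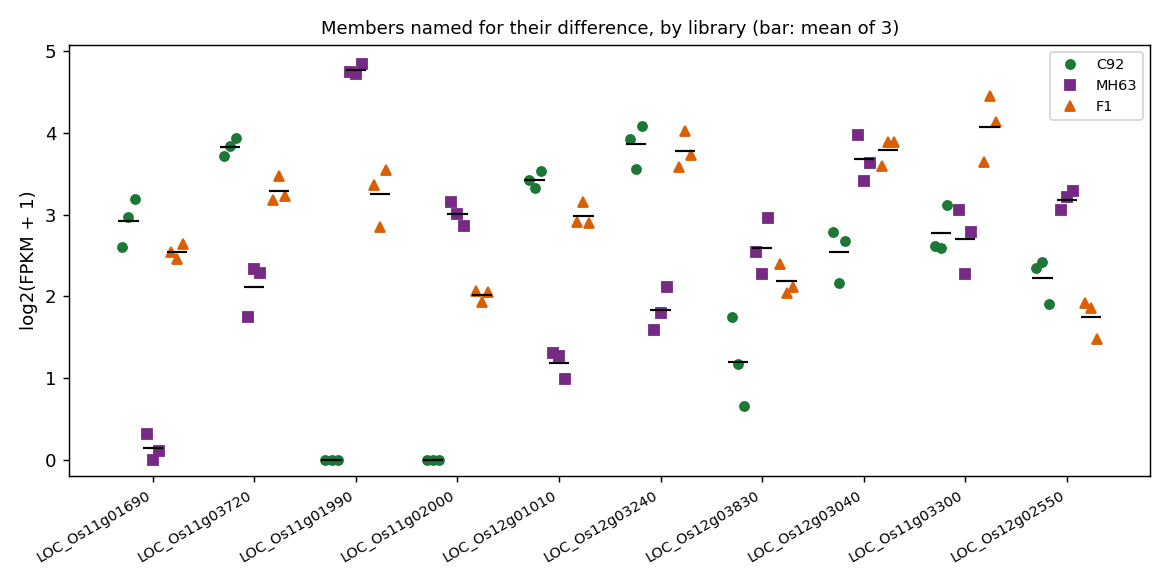
Levels on the log2(FPKM + 1) scale of 10 members in each library, with bars at the mean of 3; the first 8 have the largest differences between the parents by tip and direction, and the last 2 were named in the F1 comparisons. LOC_Os11g01990 and LOC_Os11g02000 sit at 0 in C92. Every F1 library of LOC_Os11g03300 lies above both parents. In LOC_Os12g02550 F1 libraries 2 and 3 lie below both parents and library 1 lies within the C92 range.

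Some members were expressed in a single parent. The limits were 1 FPKM or more in every library of the expressing parent and 0.1 FPKM or less in every library of the other. By these limits 1 of 572 members was expressed in C92 alone (0.175%), beside 0.923% of all loci, and 5 in MH63 alone (0.874%), beside 0.43%. The C92 locus was LOC_Os11g01710, at 1.41, 1.64 and 1 FPKM in C92, 0 in all 3 MH63 libraries, and 1.47, 0.99 and 1.12 in F1. Of the 5 MH63 loci, 4 lay on the chromosome 11 tip, LOC_Os11g01990 and LOC_Os11g02000 among them, and 1 on the chromosome 12 tip. In F1 these 5 loci stood at 0.332 to 0.499 of their MH63 mean, with a median of 0.43, beside 0.406 over all such loci. The median by library was 0.379, 0.353 and 0.444 in F1 libraries 1, 2 and 3. All 5 reached an FPKM of 0.1 in every F1 library.

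Among the 30 members called at 2-fold or more between the parents, the median place of F1 was 0.547, and 1 lay outside the parental range. It was 0.551 for the 18 members of the chromosome 11 tip and 0.458 for the 12 of the chromosome 12 tip, beside 0.563 over all loci so called. By library it was 0.551, 0.604 and 0.487 in F1 libraries 1, 2 and 3.

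The next comparison set F1 against C92. In F1, 26 members of the chromosome 11 tip were higher and 23 lower, together 49 of 151 (32.5%), beside 24.3% of all tested loci. For the chromosome 12 tip these were 14 and 24, together 38 of 155 (24.5%), and over all tested loci 10.6% were higher and 13.7% lower. On the rest of chromosomes 11 and 12, 28.6% and 27.4% differed between F1 and C92. A 2-fold change was found in 10 higher members and 1 lower member of the chromosome 11 tip, and in 3 and 1 of the chromosome 12 tip. Over all tested loci 4.39% passed at 2-fold, 2.25% higher and 2.14% lower.

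LOC_Os11g03484 was among the members with the largest rise. It measured 5.71, 5.69 and 6.36 FPKM in C92, 32.0, 33.8 and 31.4 in MH63, and 18.8, 18.6 and 23.1 in F1, between the parents in every library (log2 difference from C92 1.61, SE 0.10, limma adjusted p = 1.05e-05). LOC_Os11g01990, listed at 0 in C92, also rose (adjusted p = 2.3e-06). LOC_Os12g03040 rose by 1.25 (SE 0.19, adjusted p = 0.00238), and LOC_Os12g03822, at 4.15, 3.71 and 2.61 FPKM in C92 and 6.47, 6.95 and 7.44 in F1, rose by 0.84 (SE 0.13, adjusted p = 0.00261).

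The largest fall on the chromosome 12 tip was that of the abundant LOC_Os12g02300. It measured 542.0, 740.3 and 590.7 FPKM in C92, 163.4, 143.1 and 160.6 in MH63, and 270.5, 320.1 and 155.3 in F1 (log2 difference from C92 -1.38, SE 0.24, limma adjusted p = 0.00406). F1 libraries 1 and 2 lay between the parents and library 3 within the MH63 range. LOC_Os12g01370 measured 13.3, 14.1 and 14.3 FPKM in C92, 8.19, 8.33 and 7.39 in MH63, and 8.34, 8.27 and 5.09 in F1, and fell by 0.88 (SE 0.16, adjusted p = 0.00449). LOC_Os11g01570, on the chromosome 11 tip, measured 24.3, 31.0 and 28.5 FPKM in C92, 17.7, 16.0 and 21.0 in MH63, and 12.6, 15.2 and 12.6 in F1. It was 1 lower on the log2 scale in F1 than in C92 (SE 0.13, adjusted p = 0.00116), with every F1 library below both parents. LOC_Os11g02330 fell by 0.97 (SE 0.21, adjusted p = 0.0112), from 13.6, 15.1 and 14.6 FPKM in C92 to 7.8, 9.15 and 4.4 in F1, with MH63 at 6.61, 9.36 and 8.13.

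These counts depended on single libraries. The 49 called members of the chromosome 11 tip became 25 when C92 library 2 was left out, 29 when C92 library 3 was and 25 when F1 library 3 was. The 38 of the chromosome 12 tip became 17, 15 and 16 in the same order, and 19 when both F1 libraries 1 and 2 were left out.

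Against MH63, 12 members of the chromosome 11 tip were higher in F1 and 14 lower, together 26 of 151 (17.2%), beside 18.9% of all tested loci. The chromosome 12 tip had 17 higher and 5 lower, together 22 of 155 (14.2%), and over all tested loci 11.5% were higher and 7.38% lower. On the rest of chromosomes 11 and 12, 25.3% and 21.6% were called. A 2-fold change was found in 5 higher and 1 lower on chromosome 11, and in 3 higher and 2 lower on chromosome 12. Over all tested loci 5.79% passed at 2-fold, 4.24% higher and 1.55% lower. On the tips of chromosomes 11 and 12 these shares were 3.97% and 3.23%, beside 9.69% and 7.99% on the rest of each. Whether the shares differ was not tested. The split between directions moved with the scaling. After median-ratio scaling 10 were higher and 18 lower on the chromosome 11 tip, and after quantile normalization 9 and 20. For the chromosome 12 tip quantile normalization gave 12 higher and 8 lower.

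LOC_Os11g03300 rose above both parents. It measured 5.11, 5.03 and 7.66 FPKM in C92, 7.31, 3.83 and 5.91 in MH63, and 11.47, 20.8 and 16.5 in F1 (log2 difference from MH63 1.37, SE 0.25, limma adjusted p = 0.0049). LOC_Os12g03240 rose by 1.94 (SE 0.18, adjusted p = 6.75e-05), LOC_Os12g01010 by 1.80 (SE 0.12, adjusted p = 7.13e-06) and LOC_Os11g03720 by 1.17 (SE 0.16, adjusted p = 0.000839). These last 3 were the loci higher in C92 described above.

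Lower in F1 than in MH63 was LOC_Os12g02550, at 4.07, 4.35 and 2.76 FPKM in C92, 7.31, 8.30 and 8.75 in MH63, and 2.78, 2.63 and 1.79 in F1. It fell by 1.43 (SE 0.17, limma adjusted p = 0.000278), and its lowest C92 library lay just under its highest F1 library. LOC_Os12g02830 fell by 0.49 (SE 0.11, adjusted p = 0.0105), with MH63 at 15.0, 13.9 and 16.4 FPKM and F1 at 11.4, 8.94 and 10.99. With F1 libraries 1 and 2 left out its call was lost (adjusted p = 0.0998). LOC_Os11g01990 fell by 1.52 (SE 0.16, adjusted p = 0.00014) and LOC_Os11g02000 by 0.99 (SE 0.11, adjusted p = 0.000184).

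Against MH63 the 26 called members of the chromosome 11 tip became 17 without MH63 library 2 and 16 when F1 libraries 1 and 2 were both left out. The 22 of the chromosome 12 tip became 13 without F1 library 2 and 8 when both F1 libraries 1 and 2 were left out. These comparisons with C92 and with MH63 share the F1 libraries.

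F1 was last set against the mid-parent, the arithmetic mean of the parental levels. The chromosome 11 tip had 4 rises and 7 falls, together 11 of 151 (7.28%), and the chromosome 12 tip 5 rises and 8 falls, together 13 of 155 (8.39%), beside 8.94% of all tested loci. Both shares are near that of all loci, of which 3.36% rose and 5.58% fell. At 2-fold 1 member of chromosome 11 rose and 1 of chromosome 12 fell, beside 0.401% and 0.648% of all tested loci, together 1.05%. Which side was larger depended on the mid-parent used. Against a mid-parent averaged on the log scale 13 members rose and 7 fell on chromosome 11, and 12 rose and 9 fell on chromosome 12. Quantile normalization gave 4 rises and 15 falls on chromosome 11. LOC_Os11g03300 had the largest rise, 1.33 above the mid-parent on the log2 scale (limma adjusted p = 0.0117, SE 0.22), and without F1 library 3 its adjusted p was 0.0502. LOC_Os11g02750, at 7.42, 7.14 and 8.06 FPKM in C92, 3.75, 3.33 and 4.35 in MH63, and 9.66, 10.8 and 8.97 in F1, rose by 0.69 (SE 0.10, adjusted p = 0.00697), with every F1 library above both parents. With F1 libraries 1 and 2 left out, its adjusted p was 0.0737.

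LOC_Os12g02820, on the chromosome 12 tip, rose by 0.41 (SE 0.07, limma adjusted p = 0.0136), from 10.4, 9.79 and 9.97 FPKM in C92 and 9.13, 9.90 and 10.1 in MH63 to 12.8, 14.2 and 13.3 in F1. Its adjusted p was 0.05 without F1 library 3 and 0.0965 with F1 libraries 1 and 2 left out. LOC_Os12g03860 rose by 0.50 (SE 0.11, adjusted p = 0.0249), at 16.7, 13.3 and 19.7 FPKM in C92, 10.9, 10.4 and 10.02 in MH63, and 19.5, 19.2 and 19.6 in F1. That call was lost when any single F1 library was left out, at an adjusted p of 0.0634 to 0.0864.

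LOC_Os12g02550 fell by 1.03 against the mid-parent (SE 0.15, limma adjusted p = 0.00698) and LOC_Os11g01570 fell by 0.73 (SE 0.11, adjusted p = 0.00993). LOC_Os12g01370 fell by 0.56 (SE 0.14, adjusted p = 0.0374), a call lost without C92 library 1, 2 or 3, F1 library 3 or MH63 library 1 or 2. LOC_Os11g02070, at 16.4, 19.1 and 12.54 FPKM in C92, 13.1, 11.03 and 14.9 in MH63, and 12.1, 6.65 and 6.86 in F1, fell by 0.73 (SE 0.19, adjusted p = 0.0479). Its call was lost when any library other than F1 library 1 was left out, at an adjusted p of up to 0.174.

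The mid-parent count of the chromosome 11 tip was 2 without F1 library 3, and 6 without C92 library 2, C92 library 3 or MH63 library 1. The chromosome 12 count was 1 without F1 library 3, 4 without C92 library 2 or F1 library 2, 6 without C92 library 3 or MH63 library 1, 8 without F1 library 1 or MH63 library 2, and 7 when F1 libraries 1 and 2 were both left out. At an unadjusted p below 0.05 the members that passed were 47 on the chromosome 11 tip (31.1%) and 48 on the chromosome 12 tip (31%), beside 27.5% of all tested loci.

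Loci of like number on both chromosomes, such as LOC_Os11g01010 and LOC_Os12g01010, were then taken as possible pairs. The tips held 231 such pairs, and 56 members of chromosome 11 and 54 of chromosome 12 had no partner. In 181 pairs at least 1 locus was tested and in 65 both were. A like number does not by itself show that the loci are copies or lie at matching places along the ends. No sequences were used.

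Among like-number pairs with both loci tested, similar levels were most frequent for ID numbers starting with 01. Among pairs with both loci tested, 20 of 65 (30.8%) lay within 2-fold of each other on the log2(FPKM + 1) scale in C92, MH63 and F1 alike, beside 45 of 240 (18.8%) on the rest of both chromosomes, where loci of like number have no stated relation. Among numbers starting with 01, nearest the ends, they were 11 of 21 (52.4%), among those starting with 02 they were 6 of 25 (24%), and among those starting with 03 they were 3 of 19 (15.8%). That scale draws low loci together. With 2-fold taken between mean FPKM, a setting chosen after seeing the data, 15 of 65 pairs lay within it (23.1%), beside 16.2% on the rest of both chromosomes, and 9, 3 and 3 by the start of the number. This order was not tested, and whether loci of like number match equally well further along the tips is unknown. Among numbers starting with 02, the abundant runs of the tips lie at unlike numbers, LOC_Os11g02350 to LOC_Os11g02424 and LOC_Os12g02300 to LOC_Os12g02340. The order by number is therefore not a measure of how far copies differ. Pearson's r between the mean log2(FPKM + 1) levels of the loci was -0.11 in C92, -0.184 in MH63 and -0.16 in F1 over the 181 pairs with a tested locus, a choice that leaves out pairs in which both are low. On the rest of both chromosomes r was -0.355, -0.33 and -0.362 over 1342 pairs by the same choice. Over all 229 pairs of the tips with a value above 0 it was 0.0906, 0.0342 and 0.0609, and on the rest of both chromosomes 0.0384, 0.0449 and 0.0427 over 2767 pairs. In the tips, by this setting, it was 0.238, 0.201 and 0.192 for numbers starting with 01 (75 pairs). For 02 it was 0.0136, -0.0611 and -0.0133, and for 03 it was 0.037, -0.0327 and 0.00994. Over pairs with a tested locus it was -0.0427, -0.0733 and -0.108 for 01 (55 pairs). For 02 it was then -0.109, -0.205 and -0.151, and for 03 it was -0.192, -0.286 and -0.242. The setting over all pairs and the split of r by number were chosen after seeing the data, and all pairs share the same libraries.

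**Figure D4:**
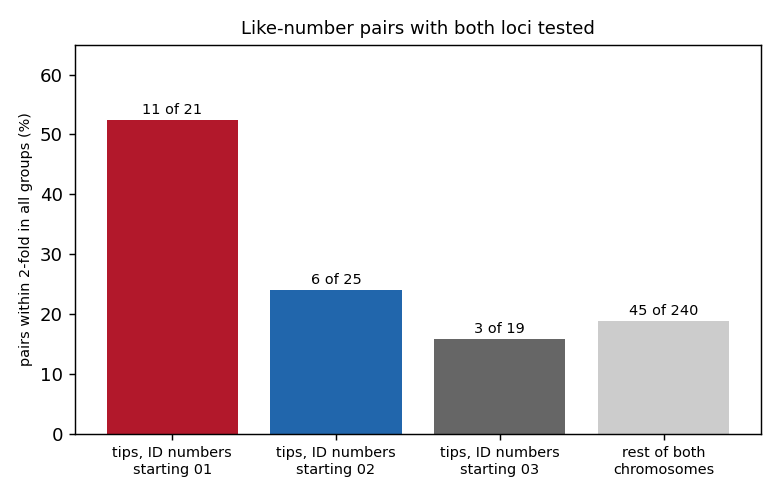
Percentage of like-number pairs, among those with both loci tested, whose levels lay within 2-fold on the log2(FPKM + 1) scale in C92, MH63 and F1, by the start of the ID number; counts on the bars are of pairs. The share is 52.4% among numbers starting with 01 and 15.8% to 24% further along the tips.

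The alike pairs included LOC_Os11g01140 and LOC_Os12g01140, LOC_Os11g01170 and LOC_Os12g01170, LOC_Os11g01200 and LOC_Os12g01200, and LOC_Os11g01210 and LOC_Os12g01210, which lie near each other. These pairs and those of LOC_Os11g01740 and LOC_Os11g01210 were picked out after their values had been seen. LOC_Os11g01740 measured 33.2, 41.5 and 42.1 FPKM in C92, 28.3, 24.2 and 27.4 in MH63, and 24.1, 23.5 and 20.8 in F1. LOC_Os12g01740 measured 28.7, 36.2 and 34.8 FPKM in C92, 23.8, 20.8 and 22.2 in MH63, and 21.7, 19.2 and 17.5 in F1. Each was higher in C92 than in MH63 (log2 difference 0.53, limma adjusted p = 0.00593, and 0.55, adjusted p = 0.0048). The ratio of the first to the second stayed between 1.11 and 1.24 in all 9 libraries. Whether both draw on the same reads was not tested.

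Other alike pairs shifted between the parents. LOC_Os11g01210 measured 21.6, 25.0 and 27.3 FPKM in C92, 43.6, 46.5 and 30.3 in MH63, and 20.9, 23.9 and 34.5 in F1. LOC_Os12g01210 measured 21.1, 26.9 and 26.8 FPKM in C92, 23.1, 26.2 and 16.6 in MH63, and 24.7, 29.4 and 37.3 in F1. Within the pair the log2 difference of chromosome 11 minus chromosome 12 was -0.02 in C92, 0.84 in MH63 and -0.21 in F1. Between the parents this balance differed by -0.86 (SE 0.10, limma adjusted p = 0.000112). The balance differed between the parents in 10 of the 20 alike pairs (50%), beside 46.2% of the 65 tip pairs with both loci tested, which include them. On the rest of both chromosomes it differed in 16 of 45 alike pairs (35.6%) and in 45.4% of the 240 pairs with both loci tested. Whether these shares differ was not tested.

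**Figure D5:**
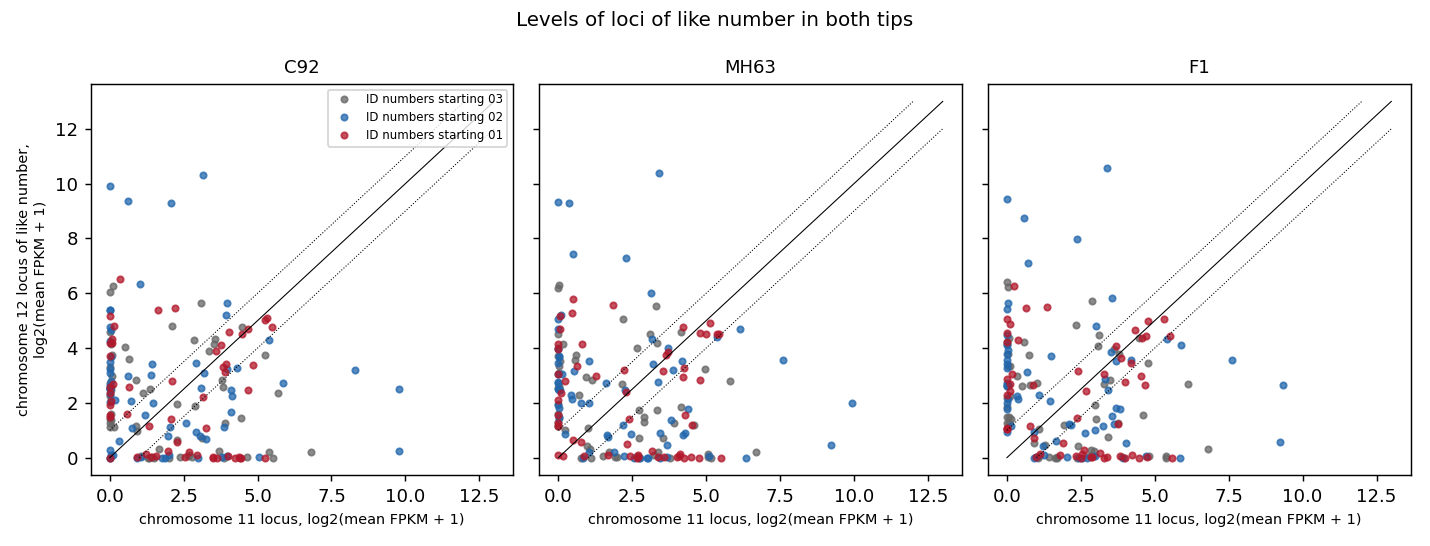
Mean level of the chromosome 12 locus against that of the chromosome 11 locus of like number, both as log2(mean FPKM + 1), for the 181 pairs with at least 1 tested locus, by group and ID number; the solid line marks equal levels and the dotted lines 2-fold. Many points lie along an axis, where a single locus of the pair is expressed.

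In 126 of the 181 pairs with a tested locus, the same locus was higher at 2-fold or more in C92, MH63 and F1. Of 1342 such pairs on the rest of both chromosomes, chromosome 11 was higher in all 3 groups in 450 and chromosome 12 in 556. A single locus was tested in 116 of the 181, and a gap between an expressed and a low locus is in part set by that choice. Among the 65 pairs with both loci tested, the same one was higher in all 3 groups in 28 (43.1%), beside 55.8% on the rest of both chromosomes. The level of the chromosome 11 locus differed from that of its partner at 2-fold or more, with a limma adjusted p below 0.05, in 138 of 181 pairs in C92, 142 in MH63 and 143 in F1. The shares of like-number pairs over whole chromosomes 11 and 12 were 85.2%, 83.5% and 86.2%. When both loci had to be tested, 34, 38 and 36 of 65 pairs differed in C92, MH63 and F1. Chromosome 11 was higher in 67 and chromosome 12 in 71 pairs in C92, 67 and 75 in MH63, and 70 and 73 in F1. In 55 pairs chromosome 11 was higher in all 3 groups and in 71 chromosome 12 was. In 0 pairs did the higher locus switch between the parents at 2-fold or more in each, by the same limma test, beside 10 of 1342 pairs on the rest of both chromosomes, 6 with chromosome 11 higher in C92 and 4 with chromosome 12. Of the pairs with a single tested locus, that locus was on chromosome 11 in 56 and on chromosome 12 in 60.

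The widest gaps belonged to the abundant loci, whose like-number partners were low. LOC_Os11g02400 measured 730.3, 956.5 and 962.2 FPKM in C92, 654.3, 582.0 and 570.3 in MH63, and 638.2, 645.2 and 521.9 in F1. Its partner LOC_Os12g02400 stood at 0.05 to 0.8 FPKM. LOC_Os11g02350 stood above LOC_Os12g02350, which averaged 4.61, 2.97 and 5.27 FPKM. LOC_Os12g02340 was paired with LOC_Os11g02340, listed at 0 in all 9 libraries. LOC_Os12g02310 measured 508.9, 798.2 and 674.8 FPKM in C92, 735.9, 576.4 and 581.1 in MH63, and 514.7, 411.7 and 374.8 in F1, against group means of 0.55, 0.283 and 0.48 FPKM of LOC_Os11g02310. The abundant runs of the tips thus do not share numbers, since the run of chromosome 12 starts and ends at lower numbers than that of chromosome 11.

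The balance within pairs was compared between the parents. In 74 of 181 pairs (40.9%) it differed at a limma adjusted p below 0.05, beside 39.9% of like-number pairs over both whole chromosomes. In 30 of these the log2 difference of chromosome 11 minus chromosome 12 was larger in C92, and in 44 it was larger in MH63. This does not say which locus was the higher one. At 2-fold or more these were 13 and 18 pairs, together 17.1%, beside 16.3%. Both shares are near those of all like-number pairs. When the fit was repeated on pairs with both loci tested only, 29 pairs were called. The difference was larger in C92 in 15 and in MH63 in 14, so that the larger side turned.

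In F1 the balance differed from C92 in 51 pairs (28.2%), beside 27.2% over both chromosomes, and from MH63 in 36 pairs (19.9%), beside 22.8%. The first pair of the ends, LOC_Os11g01010 and LOC_Os12g01010, showed both members moving. LOC_Os11g01010 measured 13.7, 12.9 and 15.7 FPKM in C92, 22.8, 22.3 and 21.6 in MH63, and 21.4, 21.0 and 23.9 in F1, with a log2 difference of -0.62 between C92 and MH63 (SE 0.09, limma adjusted p = 0.000723), while LOC_Os12g01010 was higher in C92. The chromosome 11 locus was the higher one in every library, by 0.48 in C92, 3.35 in MH63 and 1.54 in F1 on the log2 scale. Between the parents this balance differed by -2.86 (SE 0.13, adjusted p = 1.55e-07). This pair was picked out after its values had been seen.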

How the data were processed

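Polyadenylated RNA of 9 shoot libraries was sequenced, and per the labels' protocols cDNA was primed with random hexamers, fragmented by nebulization and made into Illumina libraries. HISAT2 2.0.5 was the aligner named by the submitters' processing notes. Build, annotation, strand handling and the quantification program were not given in the sources used here, so overlapping genes and near-identical copies are uncertain. The authors deposited FPKM, with 1 value per locus and library. The RefSeq gene table matched 0 of the 55783 IDs.

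Values were fitted as log2(FPKM + 1) by limma 3.58.1 (R 4.3.3), the 9 libraries together, with an intensity trend, two-sided tests and Benjamini-Hochberg adjustment over the 21447 loci that reached 1 FPKM in 3 or more libraries. Fold changes on this scale understate those of low loci. The mid-parent is the log2 of the arithmetic mean of both fitted parental levels, with its error by the delta method. Pair balance was fitted as the per-library difference of both loci over all 1523 like-number pairs of chromosomes 11 and 12 with a tested locus. Both procedures were tested on simulated data with normal noise drawn separately for each locus. The simulation held no reads shared between copies, so it does not cover that uncertainty. Printed loci are, per tip and comparison, at most 2 higher and 2 lower, with libraries that do not overlap and a mean of at least 5 FPKM in the higher group, ranked by log2 difference; the 2 most abundant members per tip, single-parent loci and pairs followed like rules. The members, lists and rules were chosen with earlier results of these data known. Libraries of a group had Pearson correlations of 0.977 to 0.99 across tested loci, and none were identical. Alternatives were another pseudocount, filter, scaling, mid-parent and pairing of loci, and leaving out libraries.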

Additional observations from a re-analysis of the deposited data

Results flagged for a closer look

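The balance between the chromosome 11 and the chromosome 12 locus differed between the parents in 74 of 181 like-number pairs (40.9%), beside 39.9% over both whole chromosomes. The 4 pairs given here had the largest differences, 2 each way, among called pairs with a locus averaging at least 5 FPKM in a parent. The difference in balance was tested in limma and is given as C92 minus MH63 on the log2(FPKM + 1) scale. For LOC_Os11g01690 and LOC_Os12g01690 it was 2.75 (SE 0.17, limma adjusted p = 1.04e-06), and for LOC_Os11g03720 and LOC_Os12g03720 it was 1.84 (SE 0.19, adjusted p = 3.81e-05). For LOC_Os11g01990 and LOC_Os12g01990 it was -4.77 (SE 0.16, adjusted p = 2.61e-08), and for LOC_Os11g02000 and LOC_Os12g02000 it was -3.01 (SE 0.11, adjusted p = 5.09e-08). In these last pairs the chromosome 11 locus was listed at 0 in C92 and the chromosome 12 locus in both parents, so the sizes depend on the pseudocount. LOC_Os12g01690 stayed at 0 to 0.2 FPKM in all 9 libraries. With such low partners, these balances repeat the parental differences of LOC_Os11g01690, LOC_Os11g01990 and LOC_Os11g02000 alone, 2.78, -4.77 and -3.01. In the pair of LOC_Os11g03720 the partner was expressed, at 5.89, 4.53 and 4.36 FPKM in C92 and 4.77, 6.52 and 5.19 in MH63, and the chromosome 11 locus was the higher one in C92 and the lower one in MH63.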

How the results depend on the processing

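Among the printed tests of loci and pairs that were recomputed, those that passed kept their direction. Of those that did not pass, LOC_Os11g02369 in F1 against MH63 turned to 0.07 with quantile normalization, and LOC_Os12g02320 between the parents to 0.08; when single libraries were left out the latter ran from -0.17 to 0.02. Of the count and level results, 247 values stayed within 1.5 times or their spread and 67 moved further; of the tests of single loci and pairs 789 kept their call, 52 lost it, 2 gained one and 4 turned without passing. With a mean FPKM of at least 5, 38 members of the chromosome 11 tip differed between the parents, 23 of the chromosome 12 tip between F1 and C92, and 14 of each tip between F1 and MH63, and F1 lay at 0.482 between the parents. With no filter, 32 and 17 members differed between F1 and C92, and 6 and 3 from the mid-parent, on chromosomes 11 and 12. When F1 libraries 1 and 2 were both left out, the moved counts were 19 (F1 against C92, chromosome 12), 16 and 8 (F1 against MH63, chromosomes 11 and 12) and 7 (mid-parent, chromosome 12). A log-scale mid-parent gave 20 (13 up, 7 down) and 21 (12 up, 9 down) calls, and quantile normalization 19 on chromosome 11. With both loci of a pair tested, the balance was called in 29 pairs and a 2-fold level difference in 34, 38 and 36 in C92, MH63 and F1; this choice leaves out pairs in which a single locus is expressed. Correlations of like-number levels in C92, MH63 and F1 were then 0.166, 0.0876 and 0.15, beside 0.143, 0.18 and 0.159 on the rest of both chromosomes. In the tips they were 0.0906, 0.0342 and 0.0609 with no filter on pairs, a setting chosen after seeing the data. With a pseudocount of 0.1 they were -0.184, -0.277 and -0.266, and in rank order 0.0275, 0.0169 and 0.0222. Limits of 2 and 0.1 FPKM left 0 loci in C92 alone. Without the most abundant member of each tip the ratio of sums was 1.28, 1.38 and 1.39. Where no cause is named, the cause was not tested.

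Leaving out single libraries, the number of members that differed between the parents was 43 to 67 on the chromosome 11 tip and 31 to 44 on the chromosome 12 tip, and between F1 and C92 it was 25 to 50 and 15 to 39. Between F1 and MH63 it was 17 to 27 and 13 to 24, and against the mid-parent 2 to 11 and 1 to 13. Loci in C92 alone were 1 to 2 and in MH63 alone 5 to 6. Pair balance gave 56 to 75 calls, level differences 137 to 142 in C92, 141 to 144 in MH63 and 139 to 143 in F1. Correlations were -0.127 to -0.109 in C92, -0.204 to -0.178 in MH63 and -0.18 to -0.16 in F1. The place of F1 was 0.485 to 0.6, and the ratio of sums 1.83 to 1.93 in C92, 1.79 to 1.86 in MH63 and 1.52 to 1.65 in F1.

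With the replicate number as a block, 59 and 39 members differed between the parents, 41 and 29 between F1 and C92, 23 and 20 between F1 and MH63, 11 and 10 from the mid-parent, and 76 pairs in balance. Of the printed loci, 4 lost a call under the block: LOC_Os11g02369 (adjusted p = 0.0572) and LOC_Os12g02340 (0.0572) in F1 against C92, LOC_Os11g02350 in F1 against MH63 (0.0591) and LOC_Os11g02070 against the mid-parent (0.0648). Deviations of same-numbered libraries of different groups correlated at -0.432 to 0.343, and those of other-numbered libraries at -0.413 to 0.415. With so few libraries per group, these values cannot settle whether the numbers pair the samples. Read depth is unknown, so counting error could not be given.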

Other observations

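Some loci of unlike number varied together between libraries of a group. LOC_Os11g02240 measured 4.03, 2.86 and 2.55 FPKM in C92, 4.05, 13.4 and 35.2 in MH63, and 12.4, 2.73 and 18.7 in F1. LOC_Os12g02200 measured 8.33, 5.10 and 3.30 FPKM in C92, 8.32, 21.3 and 45.8 in MH63, and 19.2, 5.04 and 24.4 in F1. In both, MH63 library 3 was the highest and MH63 library 1 the lowest of its group, and F1 library 2 was the lowest of F1. The ratio of the first to the second stayed between 0.484 and 0.773, while each level varied over a far wider range. Among the abundant loci, the ratio of LOC_Os11g02369 to LOC_Os12g02310 was 7.15 to 8.28 in C92, 6.09 to 6.52 in MH63 and 6.94 to 7.51 in F1. The ratios of the parents thus did not overlap. In F1 libraries 2 and 3 both loci were lower than in any parental library. These loci were picked out after their values had been seen, and whether they share reads was not tested.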
